A study of Mus musculus with 16 samples.

Results

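Chromatin accessibility was examined around 9 genes of the pre-B-cell receptor and of V(D)J recombination (Igll1, Vpreb1, Vpreb2, Vpreb3, Cd79a, Cd79b, Rag1, Rag2 and Dntt) in mouse hematopoietic progenitors. A site was counted with these genes when it lay, in whole or in part, within 100 kb of the 5′ end of at least 1 of them. The rule used gene positions and no measured difference. It found 152 of the 90549 accessible sites that 16 ATAC-seq libraries held together. Igll1 and Vpreb1 lie side by side, as do Rag1 and Rag2, so the 9 genes made 7 loci, with 10 sites at Igll1-Vpreb1, 24 at Vpreb2, 20 at Vpreb3, 34 at Cd79a, 25 at Cd79b, 19 at Rag1-Rag2 and 20 at Dntt.

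In ATAC-seq, the Tn5 transposase inserts adapters where DNA is open, and a peak marks a stretch with many insertions. The cells were fetal-liver progenitors immortalized by a retrovirus with estrogen-regulated Hoxb8 and grown with β-estradiol, so all 4 groups carried Hoxb8. Wild-type cells (hi-77+/+ empty) and cells without the -77 enhancer of Gata2 on both alleles (hi-77-/- empty) received an empty retrovirus. Further hi-77-/- cells received a virus for GATA2 (hi-77-/- GATA2) or for 9aa-Ins (hi-77-/- 9aa-Ins), a disease variant whose zinc fingers are set apart by an insertion of 9 amino acids. All viruses carried GFP, and 50000 GFP-positive cells were sorted for each library after 3 d of infection. Each group had 4 libraries. Age and strain were not given in the sources used here. Separate lines within a genotype were not named, so genotype and cell line cannot be told apart in the comparison of hi-77-/- empty with hi-77+/+ empty. The sources do not say whether the libraries came from separate infections, so the p-values measure the spread between these libraries.

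The deposited lists held 50195 to 112267 peaks per library, and no read totals, so the sequencing depth is unknown. The hi-77+/+ empty lists held 76447 to 112267 peaks and the hi-77-/- empty lists 64258 to 74703. The GATA2 lists held 50195 to 78185 and the 9aa-Ins lists 70547 to 108020. The 49000 most significant peaks of each list were therefore used, and each peak received a rank score. The score was 100 for the most significant peak of a library, fell linearly with rank to near 0, and was 0 where a site had no peak among the 49000. It is a place in an ordering, not an amount of signal. The lowest −log10 p among the 49000 was 8.34 to 9.7 in hi-77+/+ empty and 7.38 to 8.13 in hi-77-/- empty. It was 5.35 to 7.43 with GATA2 and 8.75 to 11.7 with 9aa-Ins. A weak peak could therefore be ranked with GATA2 and a peak of the same p not be ranked with 9aa-Ins. Opened and closed sites were those with a peak in 4 of 4 libraries on 1 side of a comparison and in 0 of 4 on the other. Scores were compared by limma over all 71419 sites with a peak in at least 2 libraries, with Benjamini-Hochberg adjustment over all of them and a threshold of 0.05. Of the 152 sites, 129 were tested and 23, each with a peak in 1 library, were not. Among the tested sites, 14 had peaks in 1 group only and entered the test through that group. The spread of a site was estimated from all 4 groups together. A group at 0 in all its libraries adds no spread, so p-values at such sites can be too small. The comparisons of hi-77-/- empty with hi-77+/+ empty, of GATA2 with hi-77-/- empty and of 9aa-Ins with hi-77-/- empty share the hi-77-/- empty libraries.

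The pre-B-cell receptor is the checkpoint of early B-lymphocyte development. A rearranged immunoglobulin heavy chain pairs with a surrogate light chain, built from λ5 (Igll1) and VpreB (Vpreb1 or Vpreb2), and signals through Igα (Cd79a) and Igβ (Cd79b). Rearrangement itself starts when RAG1 and RAG2 cut DNA at recombination signals, and terminal deoxynucleotidyl transferase (Dntt) adds bases at the joints. In lymphoid progenitors these genes are controlled by factors that include EBF1, E2A, Ikaros and RUNX1, while GATA2 is a factor of stem cells and of myeloid and mast cell precursors.

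The DNA under 8 sites is printed here because the comparisons turn on them, 1 of them or 2 for each locus. For 6 of them the choice followed a rule (the site with the smallest adjusted p of a locus), and the Cd79a promoter and the site downstream of Vpreb3 were chosen after the values were seen. Each run is the plus strand of GRCm38.p6, the patched form of the mm10 build of the files, around the median summit, shortened where a UTR lay near. Capitals mark matches on either strand to letters fixed for 6 factor families: EBF1 (TCCC then any 2 bases then GGGA), GATA (A or T, then GATA, then A or G), ETS (AGGAAG or CGGAAG), E-box (CAGGTG or CAGCTG), Ikaros (TGGGAA) and RUNX (TGTGGT).
Igll1 promoter, chr16:16864019-16864218: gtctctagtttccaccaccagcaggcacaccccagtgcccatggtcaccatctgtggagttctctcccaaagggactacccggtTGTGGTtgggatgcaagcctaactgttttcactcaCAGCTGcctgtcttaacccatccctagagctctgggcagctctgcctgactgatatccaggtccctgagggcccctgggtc
Vpreb2 upstream site, chr16:17969593-17969792: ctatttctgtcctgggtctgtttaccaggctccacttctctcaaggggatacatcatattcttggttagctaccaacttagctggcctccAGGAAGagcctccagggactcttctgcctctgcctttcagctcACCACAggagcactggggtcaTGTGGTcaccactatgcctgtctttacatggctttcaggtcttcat
Vpreb3 downstream site, chr10:75949716-75949915: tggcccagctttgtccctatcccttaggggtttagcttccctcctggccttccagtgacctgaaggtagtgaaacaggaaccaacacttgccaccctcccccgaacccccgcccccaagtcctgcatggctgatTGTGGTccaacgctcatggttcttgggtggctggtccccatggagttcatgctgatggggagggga
Derl3 promoter in the Vpreb3 window, chr10:75893146-75893345: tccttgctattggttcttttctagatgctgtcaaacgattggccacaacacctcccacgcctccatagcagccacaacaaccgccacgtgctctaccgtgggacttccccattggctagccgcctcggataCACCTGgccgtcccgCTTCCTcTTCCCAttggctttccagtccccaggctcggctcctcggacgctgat
Cd79a promoter, chr7:24897281-24897380: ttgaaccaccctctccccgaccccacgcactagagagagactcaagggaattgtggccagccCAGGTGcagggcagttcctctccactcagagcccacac
Icam2 site in the Cd79b window, chr11:106382782-106382847: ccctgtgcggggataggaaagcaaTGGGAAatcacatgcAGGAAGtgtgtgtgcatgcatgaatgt
Rag2 upstream site, chr2:101621641-101621840: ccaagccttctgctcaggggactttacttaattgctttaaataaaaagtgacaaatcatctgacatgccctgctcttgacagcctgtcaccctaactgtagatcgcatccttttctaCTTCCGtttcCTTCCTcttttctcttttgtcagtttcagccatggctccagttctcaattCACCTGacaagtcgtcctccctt
Dntt intron site, chr19:41038311-41038510: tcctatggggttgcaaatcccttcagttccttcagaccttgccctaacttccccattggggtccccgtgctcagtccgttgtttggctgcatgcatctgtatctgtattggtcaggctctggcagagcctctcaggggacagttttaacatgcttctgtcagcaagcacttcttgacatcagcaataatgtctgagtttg

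The Igll1 promoter held 1 E-box match and 1 RUNX match, and the Vpreb2 upstream site 1 ETS and 2 RUNX matches. The Cd79a promoter run of 100 bases held 1 E-box match. The Rag2 upstream site held 2 ETS matches and 1 E-box match, all on the minus strand. The Derl3 promoter held 1 match each for ETS, E-box and Ikaros. The Vpreb3 downstream site held 1 RUNX match, and the Dntt intron site none for any of the 6 families. No run held the EBF1 or GATA letters. The Icam2 site of 66 bases held 1 Ikaros and 1 ETS match. Among all sites long enough for a window of 200 bases, 1.74% held the EBF1 letters, 24.2% GATA, 49.5% ETS, 25.6% E-box, 16.4% Ikaros and 25.5% RUNX. In windows of 100 bases 14.3% held an E-box match, and in windows of 66 bases 5.31% held Ikaros and 21.8% ETS. A match is only a description of the letters, and a run without a match says nothing about the factor. No motif of a family overlapped a motif of another in the printed runs.

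After deletion of the -77 enhancer, 6 of the 7 loci held at least 1 site with a peak in every hi-77-/- empty library and in no wild-type library. In the comparison of hi-77-/- empty with hi-77+/+ empty, 11 of the 152 sites were opened (7.24%, against 3.59% of all regions), and 1 was closed (0.658%, against 2.11%). By limma 28 of the 129 tested sites ranked higher (21.7%, against 16.6% of all tested regions) and 16 ranked lower (12.4%, against 16%). The opened sites lay 0.13 kb upstream of Igll1, 10.74 kb upstream of Vpreb2, 6.76 kb downstream of Vpreb3 and 4.16 kb upstream of Cd79b, with 4 at Rag1-Rag2 and 3 at Dntt. The Cd79a locus had no opened site. The 16 sites that ranked lower were 4 at Dntt, 3 at Vpreb3, 1 at Vpreb2 and 2 at each of the other 4 loci. Opened is relative to the length limit: 8 of the 11 sites had a weaker peak in at least 1 wild-type library further down its full list, and 3 had none. With all deposited peaks 4 of 320 sites near the 9 genes were opened, and with the top 24000 4 of 85. No share of all regions is given for these settings, so they do not show whether the excess over all regions was kept.

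With GATA2 in hi-77-/- cells, 8 of the 152 sites closed (5.26%, against 2.23% of all regions) and 4 opened (2.63%, against 1.73%). By limma 23 of the 129 ranked lower (17.8%, against 9.58%) and 12 higher (9.3%, against 7.01%). With 9aa-Ins, 2 sites closed (1.32%, against 0.171%) and 3 opened (1.97%, against 1.35%), while 7 ranked lower (5.43%, against 1.42%) and 4 higher (3.1%, against 4.26%). This balance was not kept with all deposited peaks, where more sites ranked higher than lower with 9aa-Ins. In the direct comparison of 9aa-Ins with GATA2, 6 sites opened (3.95%, against 2.97%) and 2 closed (1.32%, against 1.47%). There 14 ranked higher with 9aa-Ins (10.9%, against 12.7%) and 10 lower (7.75%, against 6.87%), so the shares over all sites of the windows lay near those of all regions. Medians of the score difference were 0.0, -0.17, -1.87 and 0.0 for the 129 sites in these 4 comparisons, and 0.0 in each for all tested regions.

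A window of 100 kb holds many other genes, and the nearest protein-coding gene was 1 of the 9 for only 36 of the 152 sites. This division into 36 and 116 sites was made after values had been seen and is a description. Of the 36 sites, 32 were tested, and 6 of these had peaks in 1 group only. After enhancer deletion 16 of the 32 ranked higher (50%, against 16.6% of all tested regions) and 1 lower. With GATA2 12 of the 32 ranked lower (37.5%, against 9.58%) and 1 higher, and with 9aa-Ins 6 ranked lower (18.75%, against 1.42%) and none higher. These comparisons share the hi-77-/- empty libraries. Most of the 6 lower calls with 9aa-Ins depended on the length limit. Those 1.45 and 23.94 kb upstream of Rag2, 10.74 kb upstream of Vpreb2 and 9.14 and 10.06 kb downstream of Dntt were lost with all deposited peaks. For the call 6.21 kb upstream of Rag2 (-16.5, limma adjusted p = 0.0456) no such check is given. Of the other 97 tested sites, 12 ranked higher and 15 lower after deletion, and 11 and 11 with GATA2.

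**Figure D1:**
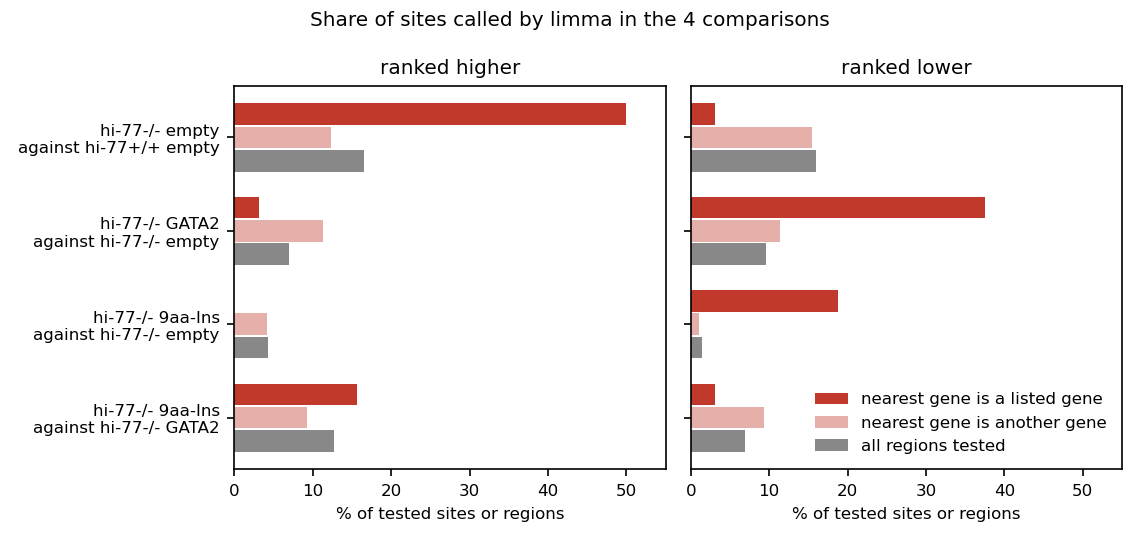
Horizontal bars give the percentage of tested sites ranked higher (left) or lower (right) by limma in each of the 4 comparisons, for the 32 tested sites nearest to 1 of the 9 genes (red), the 97 other tested sites of the windows (pink) and all 71419 tested regions (grey). The red bars reach 50% for sites ranked higher after deletion and 37.5% for sites ranked lower with GATA2, against 16.6% and 9.58% of all regions.

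The surrogate light chain genes Igll1 (chr16:16860671-16863985, minus strand) and Vpreb1 (chr16:16868403-16870843, minus strand), for λ5 and VpreB1, lie next to each other, and their promoter sites behaved differently. The Igll1 promoter site (chr16:16863698-16864444, mm10, intergenic, summit 0.13 kb upstream of the 5′ end) had no peak among the 49000 of any hi-77+/+ empty library. Its scores in hi-77-/- empty were 72.9, 81.2, 83.4 and 81.5 (mean 79.8 ± 4.68, SD, n = 4). With GATA2 the scores were 49.7, 40.5, 5.56 and 44.4 (35.03 ± 20.01), and with 9aa-Ins 64.2, 71.9, 77.8 and 79.3 (73.3 ± 6.86). All GATA2 libraries lay below all hi-77-/- empty libraries, whereas the 9aa-Ins libraries overlapped them. The score rose by 79.8 after deletion (SE 7.85, adjusted p = 1.28e-06), changed by -44.7 with GATA2 (adjusted p = 0.000569) and was 38.3 higher with 9aa-Ins than with GATA2 (adjusted p = 0.00195). The difference between 9aa-Ins and hi-77-/- empty was -6.47 (SE 7.85, adjusted p = 0.887). In the authors' peak lists this site had a fold enrichment of 16.69 to 22.21 in the hi-77-/- empty libraries, 4.898 to 8.864 with GATA2 and 18.92 to 24.45 with 9aa-Ins, values that describe each list and are not compared between lists. In the full lists 1 wild-type library had a weaker peak here. These 3 calls held in all other settings except the exact permutation test, which made no calls.

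The Vpreb1 promoter was open in all 16 libraries, at a site that overlaps Top3b and cannot be assigned to Vpreb1 alone. Its site (chr16:16870437-16871425, summit 0.05 kb downstream of the 5′ end, in a UTR of Top3b, a topoisomerase gene that overlaps it) scored 87.9, 91.9, 87.4 and 80.5 in hi-77+/+ empty and 92.8, 93.3, 94.5 and 93.6 in hi-77-/- empty, a difference of 6.66 (SE 1.84, adjusted p = 0.0102). With GATA2 and 9aa-Ins the difference from hi-77-/- empty was -1.79 (adjusted p = 0.628) and -2.24 (adjusted p = 0.699). A second site 1.46 kb upstream of Igll1 (chr16:16864815-16866417) was also present in every library, with 71.4, 70.4, 73.7 and 28.04 in hi-77+/+ empty and 88.97, 81.2, 79.6 and 88.9 in hi-77-/- empty (difference 23.8, SE 6.97, adjusted p = 0.0146). Both calls were lost with the full peak lists (adjusted p = 0.204 and 0.0748) and with only peaks narrower than 1 kb (0.0717 and 1.0).

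Vpreb2 (chr16:17980428-17981273, plus strand), which encodes the alternative VpreB chain, had almost no promoter accessibility: its promoter site had a peak in 1 hi-77-/- empty library and nowhere else. Its locus instead held a site 10.74 kb upstream (chr16:17969462-17969810, intergenic) that had a peak in all hi-77-/- empty libraries, with scores of 44.5, 42.04, 54.5 and 57.5. No hi-77+/+ empty library and no GATA2 library had a peak there, in the full lists either. With 9aa-Ins 1 of 4 libraries had a peak, at 10.1, although all 4 full lists held a weaker one. The score rose by 49.6 after deletion (SE 4.61, adjusted p = 7.28e-07) and changed by -49.6 with GATA2 (adjusted p = 1.21e-06) and -47.1 with 9aa-Ins (adjusted p = 8.39e-06). These 3 calls were lost when only the top 24000 peaks were ranked, and that for 9aa-Ins also with the full lists (-24.8, adjusted p = 0.0964). The difference between 9aa-Ins and GATA2 was 2.53 (adjusted p = 0.836).

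Other sites of the Vpreb2 window went the opposite way with GATA2, far from the gene and nearest to Slc25a1, the mitochondrial citrate carrier. At 42.17 kb upstream of Vpreb2 (chr16:17938029-17938549), the GATA2 libraries scored 62.6, 64.5, 75.8 and 73.3, and no empty-vector library of either genotype had a ranked peak. Full lists held a weaker peak there in 4 of 4 hi-77+/+ empty, 3 of 4 hi-77-/- empty and 4 of 4 9aa-Ins libraries. The score was 69.05 higher with GATA2 than in hi-77-/- empty (SE 6.52, adjusted p = 1.44e-06) and -62.1 with 9aa-Ins relative to GATA2 (adjusted p = 4.40e-06). These calls were kept without any 1 library. At 30.89 kb upstream (chr16:17949317-17949783), the GATA2 libraries scored 43.8, 40.5, 37.5 and 38.8 and no 9aa-Ins library had a ranked peak, although 3 of 4 full lists held one (difference -40.1, adjusted p = 2.59e-05), a call lost with the full lists and when a peak had to cover 50% of the site. At 41.4 kb upstream a site open in all libraries scored 80.01, 91.9, 91.4 and 92.8 in hi-77+/+ empty and 59.9, 74.9, 70.1 and 74.01 in hi-77-/- empty (difference -19.3, SE 4.68, adjusted p = 0.00441), a call lost when a peak had to cover 50% of the site. The number of sites with a peak in the Vpreb2 window was 8 to 11 in hi-77+/+ empty, 11 to 13 in hi-77-/- empty, 13 to 19 with GATA2 and 9 to 11 with 9aa-Ins.

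Vpreb3 (chr10:75943057-75949657, plus strand), a VpreB-like protein that assists assembly of the B-cell receptor, had no site within 1 kb of its 5′ end in any library. Of the sites nearby, 1 on either side was higher after deletion. The site 6.76 kb downstream (chr10:75949473-75950047, intergenic, 4.7 kb from the 5′ end of Gm5134) had no ranked peak in hi-77+/+ empty and scored 62.6, 66.5, 54.5 and 63.6 in hi-77-/- empty. It scored 45.5, 57.4, 56.6 and 54.9 with 9aa-Ins, and with GATA2 1 of 4 libraries had a peak, at 53.0. The score rose by 61.8 after deletion (SE 9.87, adjusted p = 0.000147), changed by -48.6 with GATA2 (adjusted p = 0.00201) and was 40.4 higher with 9aa-Ins than with GATA2 (adjusted p = 0.00714). All 4 wild-type full lists held a weaker peak at this place, and the last of these calls was lost with the top 24000 peaks.

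The other site, 5.05 kb upstream of Vpreb3 in an exon of Gm867 (chr10:75937849-75938488), showed the same order. It had a peak in 1 of 4 hi-77+/+ empty libraries, at 25.2, and scored 49.2, 59.98, 57.9 and 61.6 in hi-77-/- empty, 0, 24.1, 5.56 and 31.9 with GATA2 and 35.00, 55.5, 46.4 and 40.9 with 9aa-Ins. The differences were 50.9 after deletion (SE 8.56, adjusted p = 0.000234), -41.8 with GATA2 (adjusted p = 0.00213) and -12.7 with 9aa-Ins (adjusted p = 0.571). The difference of 9aa-Ins from GATA2 (29.1, adjusted p = 0.0229) was no longer called without GATA2 replicate 1 or 3, or without 9aa-Ins replicate 2 or 3, with the top 24000 peaks or with all peaks tied with the last kept. The call with GATA2 was lost with the full lists (-39.5, adjusted p = 0.0675). In the opposite direction, the promoter of Derl3, a gene of endoplasmic-reticulum protein degradation, 49.81 kb upstream of Vpreb3, scored 96.99, 99.1, 91.4 and 94.6 in hi-77+/+ empty and 0, 36.5, 35.5 and 37.2 in hi-77-/- empty. That difference was -68.2 (SE 7.09, adjusted p = 2.20e-06), and the scores were 65.8, 46.3, 68.8 and 56.4 with GATA2 (adjusted p = 0.00396 against hi-77-/- empty) and 57.5, 55.5, 52.00 and 57.00 with 9aa-Ins (adjusted p = 0.0243). The call for 9aa-Ins was lost without 9aa-Ins replicate 1, 2 or 4, both of these calls with the top 24000 peaks, and that for GATA2 when a peak had to cover 50% of the site.

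**Figure D2:**
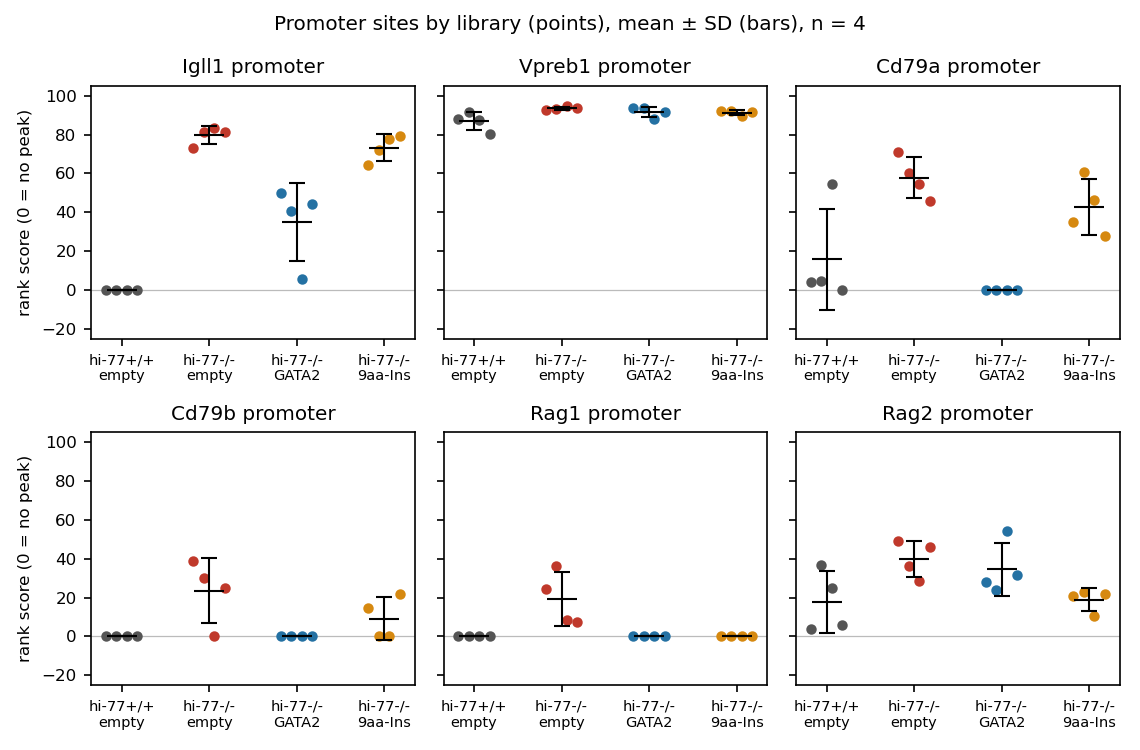
Points give the rank score (0 to 100, 0 for no peak among the 49000) of the promoter sites of Igll1, Vpreb1, Cd79a, Cd79b, Rag1 and Rag2 in each of 4 libraries of the 4 groups, with bars for mean and SD (n = 4). The GATA2 points of Igll1 lie between 5.56 and 49.7, below all hi-77-/- empty points, those of Cd79a, Cd79b and Rag1 lie at 0, and all points of Vpreb1 lie above 80.

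Igα (Cd79a, chr7:24897381-24902197, plus strand) and Igβ (Cd79b, chr11:106311341-106314762, minus strand) carry the signal of the pre-B receptor, and the promoters of both genes ranked higher after deletion and lower with GATA2. The Cd79a promoter site (chr7:24897136-24897676, summit at the 5′ end, in the Cd79a UTR) scored 3.85, 4.73, 54.7 and 0 in hi-77+/+ empty and 71.2, 59.98, 54.5 and 45.8 in hi-77-/- empty. With 9aa-Ins it scored 35.00, 60.96, 46.4 and 27.9, and with GATA2 no library had a ranked peak. Replicate 3 of hi-77+/+ empty reached the range of hi-77-/- empty, so these groups overlapped, and the 9aa-Ins libraries all lay above the GATA2 libraries. The score rose by 42.05 after deletion (SE 10.9, adjusted p = 0.00695), changed by -57.9 with GATA2 (adjusted p = 0.00107) and by -15.3 with 9aa-Ins (adjusted p = 0.612), and was 42.6 higher with 9aa-Ins than with GATA2 (adjusted p = 0.00983). All 4 full wild-type lists and 1 full GATA2 list held a peak here. The call after deletion was lost with the full lists, and all 3 calls with the top 24000 peaks.

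The Cd79b promoter site (chr11:106314273-106314810, summit 0.14 kb downstream of the 5′ end, in a coding exon of Cd79b) was weaker. It scored 39.00, 29.9, 0 and 25.1 in hi-77-/- empty and 14.8, 0, 0 and 21.9 with 9aa-Ins, and had no ranked peak in hi-77+/+ empty or with GATA2. Full lists held a peak there in all hi-77-/- empty and 9aa-Ins libraries, in 1 hi-77+/+ empty library and in no GATA2 library. The score rose by 23.5 after deletion (SE 6.67, adjusted p = 0.0121) and changed by -23.5 with GATA2 (adjusted p = 0.0211), with -14.3 for 9aa-Ins (adjusted p = 0.298). The call with GATA2 was lost without hi-77-/- empty replicate 1 or 2, and both calls when a peak had to cover 50% of the site. Upstream of Cd79b, 4.16 kb from its 5′ end in a UTR of the sodium channel gene Scn4a (chr11:106318385-106319249), a site opened after deletion. It scored 49.2, 46.8, 54.5 and 63.6 in hi-77-/- empty, 0, 40.5, 44.3 and 31.9 with GATA2 and 57.5, 48.7, 52.00 and 37.1 with 9aa-Ins. Of the full hi-77+/+ empty lists, 3 of 4 held a weaker peak there. The difference was 53.5 after deletion (SE 8.77, adjusted p = 0.000185) and -24.4 with GATA2 (adjusted p = 0.0711), so no difference with GATA2 passed the test at this site. The call after deletion was lost with the top 24000 peaks (8.192, adjusted p = 0.165) and when a peak had to cover 50% of the site (11.71, adjusted p = 0.534).

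Within the Cd79a window, a distal site nearer to another gene had a smaller adjusted p than the promoter. In a coding exon of Dmrtc2, 24.78 kb upstream of Cd79a (chr7:24872315-24872843), the scores were 58.04, 73.04, 71.7 and 58.97 in hi-77+/+ empty, 82.9, 85.3, 78.2 and 78.5 in hi-77-/- empty, 8.52, 12.3, 5.56 and 53.02 with GATA2 and 70.9, 74.03, 72.3 and 73.2 with 9aa-Ins. The difference was -61.4 with GATA2 (SE 7.83, adjusted p = 2.70e-05) and 52.7 for 9aa-Ins against GATA2 (adjusted p = 0.000118), and 15.8 after deletion (adjusted p = 0.134).

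The 3 sites of the Cd79b window with ranked peaks in all GATA2 libraries and in no hi-77-/- empty library lay at other genes. Of them 1, nearest to Tcam1 and 32.13 kb downstream of Cd79b, opened with 9aa-Ins too. It differed from hi-77-/- empty by 42.2 with GATA2 (adjusted p = 0.000876) and 40.8 with 9aa-Ins (adjusted p = 0.00336). It is named after its values were seen, and 3 full hi-77-/- empty lists held a weaker peak there. Next to Icam2, an adhesion molecule of leukocytes and endothelium, 2 neighbouring sites 67.99 and 68.84 kb upstream of Cd79b (chr11:106382510-106382943 and chr11:106383428-106383757) scored 65.8, 51.1, 64.2 and 64.4 and 49.7, 24.1, 37.5 and 49.02 with GATA2. In hi-77-/- empty neither site had a ranked peak, although 4 and 3 of the 4 full lists held a weaker one. The differences were 61.4 (SE 5.43, adjusted p = 7.57e-07) and 40.1 (adjusted p = 1.73e-05) with GATA2, and -58.8 and -39.3 for 9aa-Ins against GATA2 (adjusted p = 1.23e-06 and 2.26e-05). At the site farther upstream both calls were lost when a peak had to cover 50% of the site (15.39 with GATA2, adjusted p = 0.152), and that for 9aa-Ins against GATA2 also with the full lists. In an intron of Smarcd2, a chromatin remodeling subunit, 45.53 kb downstream of Cd79b (chr11:106269052-106269551), the GATA2 libraries scored 28.1, 12.3, 0 and 23.2 against 62.6, 64.5, 71.95 and 63.6 in hi-77-/- empty (difference -49.8, adjusted p = 6.98e-05). The 9aa-Ins libraries scored 55.5, 43.01, 43.2 and 40.9 there, a difference of 29.7 from GATA2 (adjusted p = 0.00547) that was lost with the top 24000 peaks.

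RAG1 and RAG2 form the recombinase, and their genes (Rag1, chr2:101638282-101649501, minus strand, and Rag2, chr2:101624718-101632529, plus strand) stand inside B230118H07Rik, a coding gene that spans the locus. The Rag1 promoter site (chr2:101649448-101649687, 0.11 kb upstream of the 5′ end) had ranked peaks in the hi-77-/- empty libraries only, at 24.3, 36.5, 8.51 and 7.53. These low scores differed by 19.2 from hi-77+/+ empty (SE 4.76, adjusted p = 0.00517) and by -19.2 with GATA2 (adjusted p = 0.009) and -19.2 with 9aa-Ins (adjusted p = 0.0224). The call for 9aa-Ins was lost without hi-77-/- empty replicate 1 or 9aa-Ins replicate 2, 3 or 4 and with the full lists, and those for GATA2 and 9aa-Ins when a peak had to cover 50% of the site. No full wild-type list held a peak here, but 1 full GATA2 list and 3 full 9aa-Ins lists did. The nearest coding 5′ end to this site was that of B230118H07Rik, not of Rag1. In the division by nearest gene it was therefore counted with the other genes. The Rag2 promoter site (chr2:101624546-101624959) was present in all 16 libraries, with scores of 3.85, 36.8, 25.2 and 5.74 in hi-77+/+ empty, 49.2, 36.5, 28.4 and 45.8 in hi-77-/- empty, 28.1, 24.1, 54.4 and 31.9 with GATA2 and 20.9, 22.6, 10.4 and 21.9 with 9aa-Ins. No comparison of it passed the test. A second site 0.56 kb downstream of the Rag2 5′ end (chr2:101625128-101625370) scored 24.3, 11.5, 8.51 and 1.01 in hi-77-/- empty, with no ranked peak in hi-77+/+ empty or with GATA2 (difference 11.3 after deletion, adjusted p = 0.0272), a call lost without hi-77-/- empty replicate 1 or 2 and when a peak had to cover 50% of the site.

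The strongest change of the Rag locus lay upstream of Rag2. At 2.98 kb (chr2:101621356-101622126, in an intron of B230118H07Rik) the scores were 32.6, 4.73, 39.9 and 0 in hi-77+/+ empty and 85.1, 71.97, 79.6 and 72.8 in hi-77-/- empty, with no overlap. The difference was 58.1 (SE 7.55, adjusted p = 2.07e-05). With GATA2 the scores were 58.99, 61.7, 58.1 and 66.5 and with 9aa-Ins 62.6, 80.9, 74.6 and 79.3, and neither differed from hi-77-/- empty by the test (-16.03, adjusted p = 0.179, and -3.00, adjusted p = 1.0). At 1.45 kb upstream (chr2:101623090-101623436) the site opened after deletion, at 14.3, 36.5, 28.4 and 49.3, and had no ranked peak with GATA2. Here the differences were 32.1 after deletion (SE 5.77, adjusted p = 0.000427), -32.1 with GATA2 (adjusted p = 0.000709) and -24.1 with 9aa-Ins (adjusted p = 0.018), the last not called without 9aa-Ins replicate 2, with the full lists or with peaks narrower than 1 kb. A further site 23.94 kb upstream (chr2:101600658-101600872) also opened, at 32.4, 36.5, 28.4 and 25.1 (difference 30.6, adjusted p = 0.000793). Its differences of -18.2 with GATA2 (adjusted p = 0.0435) and -25.3 with 9aa-Ins (adjusted p = 0.0152) were lost without any 1 of 5 libraries and without 9aa-Ins replicate 4, respectively, and both with the full lists and with peaks narrower than 1 kb. All 3 sites rose after deletion, and the one at 1.45 kb had the largest fall with GATA2.

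One site inside Rag1 was of the opposite kind. In the Rag1 intron, 1.19 kb downstream of the 5′ end (chr2:101648195-101648481), the GATA2 libraries scored 68.5, 24.1, 28.5 and 38.8, while 1 hi-77-/- empty library had a ranked peak, at 1.01, and no hi-77+/+ empty or 9aa-Ins library had one. Full lists held a peak here in 3 of 4 hi-77-/- empty libraries, in 1 hi-77+/+ empty library and in no 9aa-Ins library. The difference was 39.7 with GATA2 (SE 6.82, adjusted p = 0.000468) and -39.97 for 9aa-Ins against GATA2 (adjusted p = 0.000409). Summed over the Rag1 window, 10 to 12 sites had a peak in the hi-77-/- empty libraries, against 6 to 8 in hi-77+/+ empty, 6 to 8 with GATA2 and 6 to 9 with 9aa-Ins. The hi-77-/- empty range did not overlap the others.

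Dntt (chr19:41029275-41059525, plus strand) had no site within 1 kb of its 5′ end, and sites in its window were called in both directions after deletion, 8 higher and 4 lower. These were among 18 tested sites, and of all tested regions 16.6% ranked higher and 16% lower. The strongest site of the gene, 1.93 kb downstream of the 5′ end (chr19:41030924-41031710), was open in all 16 libraries with mean scores of 76.7 ± 5.66 in hi-77+/+ empty, 86.1 ± 4.32 in hi-77-/- empty, 79.9 ± 7.58 with GATA2 and 76.6 ± 5.20 with 9aa-Ins (SD, n = 4), and no comparison of it was called. At 6.89 kb upstream (chr19:41022221-41022837, intergenic) the scores were 65.1, 46.8, 68.1 and 61.6 in hi-77-/- empty and 26.1, 39.7, 52.00 and 50.1 with 9aa-Ins, with no ranked peak in hi-77+/+ empty or with GATA2. The differences were 60.4 after deletion (SE 6.92, adjusted p = 5.87e-06), -60.4 with GATA2 (adjusted p = 9.40e-06) and 41.99 for 9aa-Ins against GATA2 (adjusted p = 0.000302), while 9aa-Ins against hi-77-/- empty gave -18.4 (adjusted p = 0.164). In the full lists 2 wild-type and 2 GATA2 libraries held a peak at this place, and the call for 9aa-Ins against GATA2 was lost with the top 24000 peaks.

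A cluster of 3 sites in the introns of Dntt ranked higher after deletion and lower with GATA2. At 6.98 kb downstream (chr19:41035826-41036917) the site was present in all libraries, with 49.9, 50.4, 54.7 and 17.4 in hi-77+/+ empty, 89.8, 83.4, 83.4 and 85.1 in hi-77-/- empty, 28.1, 46.3, 49.8 and 31.9 with GATA2 and 64.2, 74.03, 79.8 and 80.2 with 9aa-Ins. The differences were 42.3 after deletion (SE 7.20, adjusted p = 0.000258), -46.4 with GATA2 (adjusted p = 0.00018) and 35.5 for 9aa-Ins against GATA2 (adjusted p = 0.00176), and they were lost with only peaks narrower than 1 kb. At 9.14 kb (chr19:41038148-41038536) only the hi-77-/- empty libraries had ranked peaks, at 44.5, 36.5, 28.4 and 45.8. That site differed by 38.8 after deletion (SE 3.98, adjusted p = 1.92e-06), by -38.8 with GATA2 (adjusted p = 3.20e-06) and by -38.8 with 9aa-Ins (adjusted p = 1.32e-05). All 4 full 9aa-Ins lists and 2 full wild-type lists held a weaker peak there, and no full GATA2 list did. All 3 calls were lost when a peak had to cover 50% of the site (20.24 after deletion, adjusted p = 0.083), and that for 9aa-Ins also with the full lists (adjusted p = 0.144).

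The last of them, 10.06 kb downstream of the Dntt 5′ end (chr19:41039110-41039544), scored 56.7, 64.5, 41.5 and 57.5 in hi-77-/- empty and 30.8, 43.01, 18.3 and 32.9 with 9aa-Ins, with no ranked peak in hi-77+/+ empty or with GATA2. The differences were 55.1 after deletion (SE 6.46, adjusted p = 7.64e-06), -55.1 with GATA2 (adjusted p = 1.20e-05) and 31.2 for 9aa-Ins against GATA2 (adjusted p = 0.00209). The difference of 9aa-Ins from hi-77-/- empty (-23.8, adjusted p = 0.0379) was lost without any 1 of 6 libraries, with the full lists, with the top 24000 peaks, with peaks narrower than 1 kb and with no filter. The call for 9aa-Ins against GATA2 was lost with the top 24000 peaks. Dntt lies on chromosome 19, where the median score of ranked peaks was 58.04 to 60.15 in hi-77+/+ empty, 50.68 to 56.72 in hi-77-/- empty, 53.02 to 55.12 with GATA2 and 50.11 to 54.44 with 9aa-Ins. Those medians were lower in all hi-77-/- libraries than in hi-77+/+ empty, and their part in the result was not tested. Blnk, an adaptor of pre-B receptor signalling in the same window, had a site in an intron (chr19:40962992-40963444) at 13.6, 73.04, 64.4 and 36.5 in hi-77+/+ empty and 82.9, 81.2, 84.6 and 80.6 in hi-77-/- empty (difference 35.4, adjusted p = 0.00491), a call lost when a peak had to cover 50% of the site.

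The 4 sites of the Dntt window that ranked lower after deletion, described after their values were seen, all had Opalin, a myelin gene, as the nearest coding gene. One lay in an intron of Dntt, 24.42 kb downstream of the 5′ end (chr19:41053510-41053909), and scored 61.3, 55.6, 71.7 and 71.9 in hi-77+/+ empty and 0, 42.04, 8.51 and 0 in hi-77-/- empty (difference -52.5, SE 12.1, adjusted p = 0.00303). With GATA2 and 9aa-Ins it differed from hi-77-/- empty by 5.79 (adjusted p = 0.89) and 4.43 (adjusted p = 1.0). The other 3 lay 57.62, 60.74 and 75.85 kb downstream, in introns of Tll2, with differences of -33.3, -39.6 and -18.7 (adjusted p = 0.0185, 0.00841 and 0.0276).

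**Figure D3:**
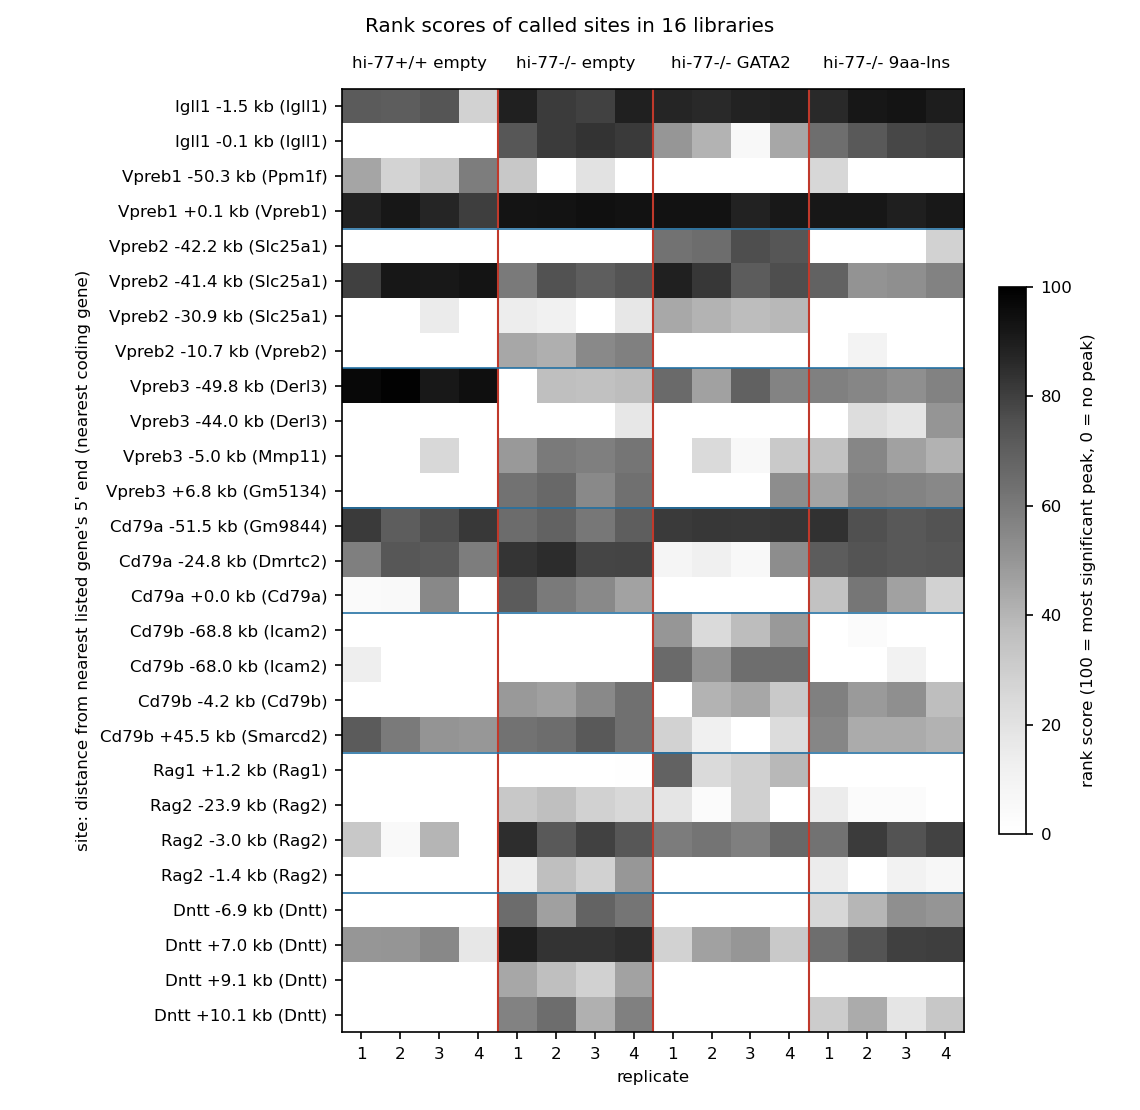
Rows are 27 called sites, the 4 with the smallest adjusted p of each locus except at Cd79a, where 3 of these 4 are shown, named by the nearest of the 9 genes, the distance of the summit from its 5′ end in kb and, in brackets, the nearest protein-coding gene, and columns are the 16 libraries. Shading runs from white (score 0, no ranked peak) to black (100), with the Dntt rows and the row 0.13 kb upstream of Igll1 darker in hi-77-/- empty than in hi-77+/+ empty, where 3 of the 4 Dntt rows are white, and the Icam2 rows shaded in the GATA2 columns.

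At the sites described above that rose after deletion, the direct comparison of 9aa-Ins with GATA2 gave 2 kinds of result. It was called, among others, at the Igll1 and Cd79a promoters, both sites near Vpreb3 and 3 Dntt sites, each time with the higher score for 9aa-Ins. Of these 7 calls only that at the Igll1 promoter was kept in every setting but the exact test, since 5 were lost with the top 24000 peaks and that at the Dntt site 6.98 kb downstream with peaks narrower than 1 kb. Sites where it was not called included the Vpreb2 upstream site (difference 2.53, SE 4.61), the Cd79b promoter (9.17, SE 6.67), the Scn4a site upstream of Cd79b (19.6, SE 8.77) and the site 2.98 kb upstream of Rag2 (13.03, SE 7.55). Missing the threshold does not show that GATA2 and 9aa-Ins acted alike there. Of all sites that ranked higher after deletion and lower with GATA2, 7 also ranked lower with 9aa-Ins than in hi-77-/- empty, and 13 did not. The 7 included the Rag1 promoter, the Vpreb2 upstream site and the Dntt site 9.14 kb downstream, whose calls with 9aa-Ins were lost with the full lists.

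**Figure D4:**
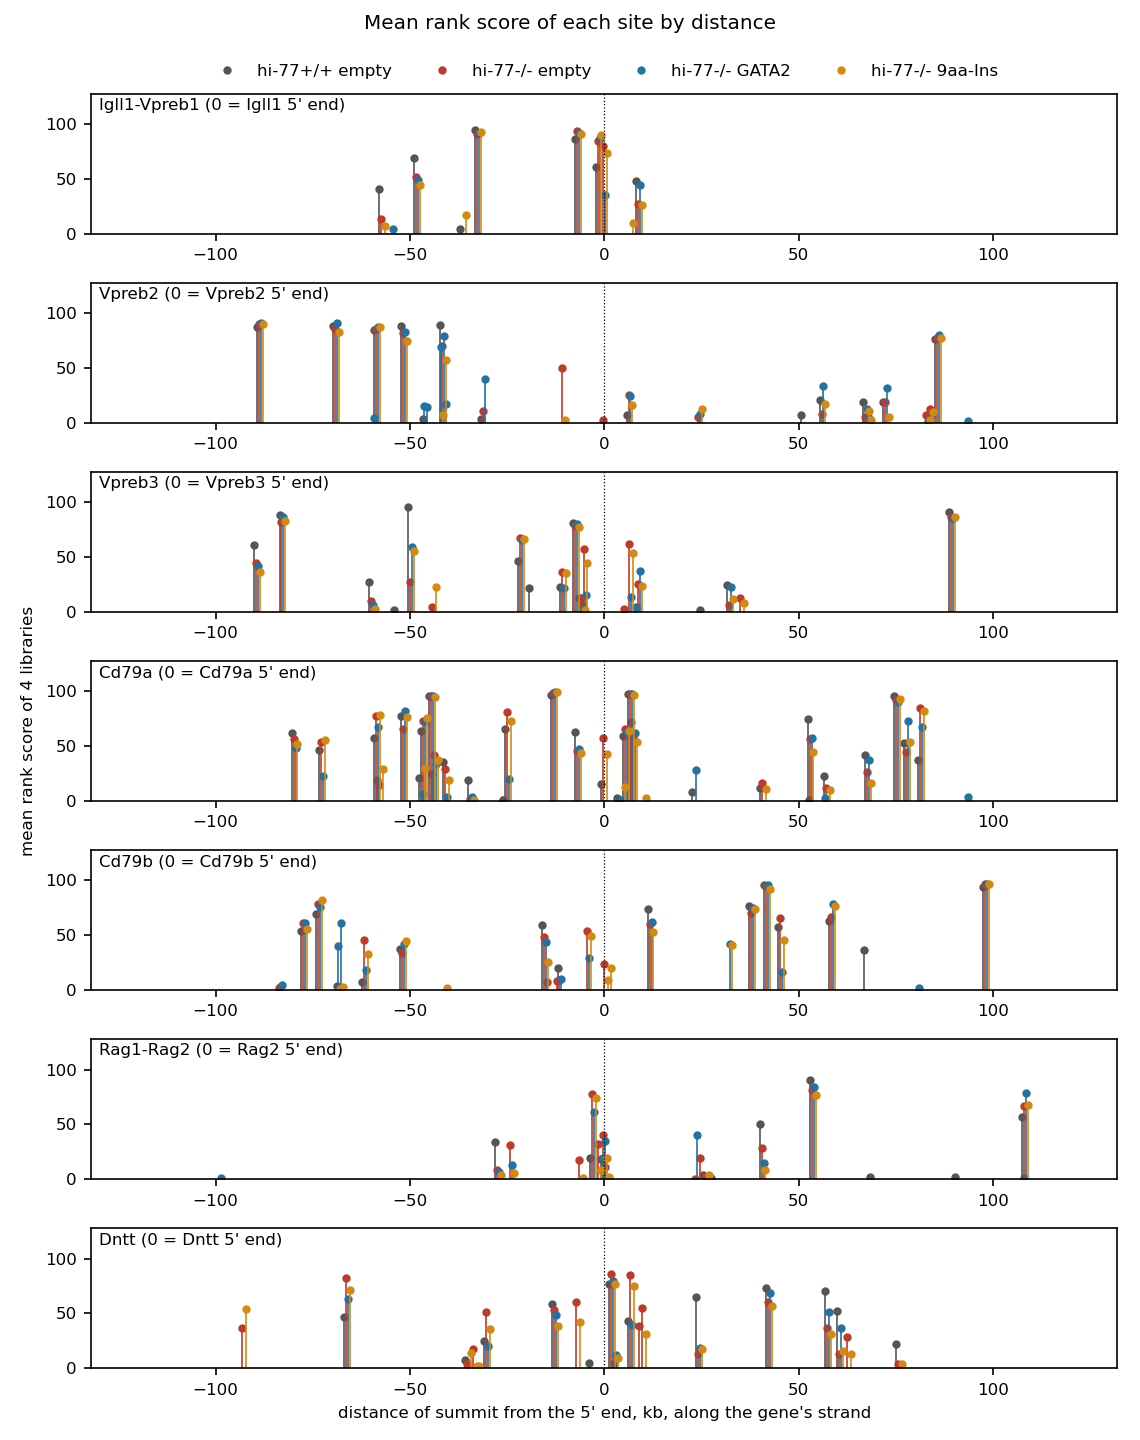
Each panel shows 1 locus, with the distance of each site's summit from the gene's 5′ end in kb on the x axis and the mean rank score of 4 libraries on the y axis. Stems of the 4 groups are shifted by up to 0.75 kb so that they do not hide each other. The red stems (hi-77-/- empty) stand above the others close to the 5′ ends of Igll1, Rag2 and Dntt, while sites farther away, many at promoters of other genes, reach similar heights in all groups.

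Counted per library, the 152 sites had a peak at 79 to 85 in hi-77+/+ empty, 86 to 95 in hi-77-/- empty, 79 to 90 with GATA2 and 89 to 93 with 9aa-Ins. The score summed over all 152 sites was 4502 ± 103 in hi-77+/+ empty, 5012 ± 112 in hi-77-/- empty, 4571 ± 111 with GATA2 and 4626 ± 64.4 with 9aa-Ins (SD, n = 4). In the Dntt window, 13 to 15 sites had a peak in hi-77-/- empty and 8 to 10 with GATA2, with 12 to 15 for 9aa-Ins. The Cd79a window, which holds the promoters of Rps19 and Arhgef1, had 20 to 27 in any library. Of the 152 sites, 26 were promoters of genes other than the 9, and those of Rps19, Mif and Zfp280b, among the highest mean scores of their loci, were called in no comparison.

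Beyond the 9 genes, the promoters of 11 genes of pre-B receptor signalling were counted. Of these, 10 had a promoter site, 2 ranked higher and 1 lower after deletion, 0 higher and 2 lower with GATA2, none either way with 9aa-Ins, and 1 higher with 9aa-Ins than with GATA2. Of all tested regions 16.6% ranked higher and 16% lower after deletion, 7.01% higher and 9.58% lower with GATA2, and 12.7% higher with 9aa-Ins than with GATA2. Pik3ap1, the adaptor BCAP that couples B-cell receptor signals to PI3K, had the smallest adjusted p. Its promoter had mean scores of 65.6 in hi-77+/+ empty, 89.4 in hi-77-/- empty, 71.9 with GATA2 and 83.5 with 9aa-Ins, with differences of 23.8 after deletion (SE 2.31, adjusted p = 1.10e-06) and -17.5 with GATA2 (adjusted p = 3.78e-05). The calls for Pik3ap1, which also lies on chromosome 19, were lost with only peaks narrower than 1 kb and when a peak had to cover 50% of the site. Plcg2, phospholipase Cγ2, differed by -21.5 after deletion (adjusted p = 0.00086), and Ptprc, the phosphatase CD45, by 15.2 (adjusted p = 0.0181), and the call for Plcg2 was lost with peaks narrower than 1 kb and that for Ptprc without hi-77+/+ empty replicate 4, with the full lists and with peaks narrower than 1 kb. The scores summed over the list ran from 527.2 to 587.9 in hi-77+/+ empty, 515.0 to 600.0 in hi-77-/- empty, 510.5 to 545.8 with GATA2 and 564.7 to 608.4 with 9aa-Ins. Blk had no promoter peak in any library.

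Of 10 genes that join the cut ends of V(D)J recombination, 9 had a promoter site, which 8 of them had in all 4 hi-77+/+ empty libraries and all 9 in all libraries of the other groups. Xrcc5, for the Ku80 end-binding protein, had a peak in 2 of 4 hi-77+/+ empty libraries. Lig4, the ligase of end joining, was the only gene of this list with a call: it differed by -10.3 after deletion (adjusted p = 0.000137) and by 6.15 with GATA2 (adjusted p = 0.0141), the second lost with the full lists and with peaks narrower than 1 kb. Artemis (Dclre1c) had mean scores of 97.9 to 99.1 over the groups, and no promoter site was found for Xrcc6.

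The labelled cell type was checked by promoter sites of marker genes. Of 10 progenitor and myeloid markers, 9 had a promoter site, and Kit, Cd34, Flt3, Myb, Runx1, Spi1 and Cebpa had it in all 16 libraries, while Csf1r had none. Mpo, the granule enzyme of neutrophil precursors, moved with the deletion, with mean scores of 18.4 in hi-77+/+ empty, 87.4 in hi-77-/- empty, 70.7 with GATA2 and 94.3 with 9aa-Ins. In this list 4 promoters ranked higher after deletion and none lower, and 2 ranked lower with GATA2. Of all tested regions 16.6% ranked higher and 16% lower after deletion, and 9.58% lower with GATA2. With 9aa-Ins 1 ranked higher than in hi-77-/- empty, that of Elane, neutrophil elastase (difference 50.62, adjusted p = 0.00145), and 3 ranked higher than with GATA2 (Spi1, Mpo and Elane). The call for Mpo with GATA2 (adjusted p = 0.0428) was lost without any 1 of 7 of the 8 libraries. Its deletion call was lost when a peak had to cover 50% of the site. The deletion calls for Myb, Runx1 and Spi1 were lost with peaks narrower than 1 kb, and those for Myb and Runx1 also with the full lists. The call for Flt3 with GATA2 was lost with peaks narrower than 1 kb and when a peak had to cover 50% of the site. For 9aa-Ins against GATA2, the Spi1 call (adjusted p = 0.0357) was lost without any 1 of 5 libraries. It was also lost with no filter, with a replicate block and when a peak had to cover 50% of the site. With peaks narrower than 1 kb, the Spi1 and Mpo calls of that comparison were lost. The summed score of the list was 583.5 to 666.2 in hi-77+/+ empty, 720.1 to 744.4 in hi-77-/- empty, 694.9 to 728.2 with GATA2 and 784.7 to 800.5 with 9aa-Ins. Both erythroid promoters with a site, those of Klf1 and Epor, ranked lower after deletion (the call for Klf1 was lost with peaks narrower than 1 kb and when a peak had to cover 50% of the site), and their summed score was 162.3 to 171.8 in hi-77+/+ empty, 130.3 to 148.5 in hi-77-/- empty, 148.7 to 164.0 with GATA2 and 120.0 to 130.8 with 9aa-Ins. Of 4 mature B-cell markers, Cr2 had a promoter peak in 3 libraries, while Ms4a1, Cd22 and Fcer2a had none, and the summed score was 0 in every GATA2 and 9aa-Ins library and at most 15.2 elsewhere. The promoters of 6 T-cell and 4 hepatocyte markers had no peak in any library, and of 4 endothelial and stromal markers Col1a1 had one. The part of these shifts in cell makeup or state in the results at the 9 genes was not tested, and a site open in fewer cells cannot be told apart from a site less open in each cell.

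Likeness over the 16 libraries was measured as Pearson's r between the summed score of the 152 sites and the summed score within 100 kb of each of 19876 other genes over 1 Mb away. The 5 genes most alike were Tspan15 (r = 0.943), 1700001O22Rik and Ntmt1 (both 0.929), Tacr2 (0.876) and Olfr628 (0.875). Tspan15 and Tacr2 are neighbours on chromosome 10, and 1700001O22Rik and Ntmt1 on chromosome 2, so each pair shares sites. The libraries share the grouping of the study, and these values describe the 16 libraries and no more.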

How the data were processed

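The authors trimmed reads with Trim Galore 0.4.1, aligned them to mm10 with Bowtie2 2.2.5, removed duplicates with Picard 2.26.0 (tools and versions from the submitters' processing notes), shifted read ends for the Tn5 offset and called peaks per library with MACS2, without pooling. The deposited columns used were the fold enrichment (a ratio to the background of the library), −log10 p, −log10 q and the summit offset; the deposited integer score was not used. No column of authors' comparisons was present.

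From each list the 49000 most significant peaks on chromosomes 1 to 19 and X were ranked (by −log10 p, then fold enrichment, ties sharing their mean rank) and overlapping peaks (1 bp) merged into regions. The lowest −log10 p kept was 5.35 to 11.7, since lists differed in length. Scores were fitted in 1 limma-trend model of all 4 groups (limma 3.58.1, R 4.3.3), without a replicate block, and the scripts were tested on simulated data. Genes were those of GENCODE M21, and no peak passed a chromosome end of the reference. Each of the 9 genes was described with its promoter site (within 1 kb). Each locus was described with up to 4 called sites by smallest adjusted p and up to 2 by mean score; other sites are named after their values were seen. Some described sites and listed genes are not reported here. The genes and gene lists were chosen with earlier results of these data known. A two-sided exact permutation test of 4 against 4 libraries cannot go below p = 0.0286. Alternatives were the full lists, the top 24000, −log10 q of at least 5, peaks narrower than 1 kb, 50% overlap, 50 kb windows, no filter, a replicate block and leaving out each library. Added after seeing the data were 2 treatments of ties.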

Additional observations from a re-analysis of the deposited data

Results flagged for a closer look

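In groups of 4 libraries, 160 sets of 4 values were checked for a library far from the other 3, and 19 stood out. The rate of 1 in 20 that the rule has for continuous values does not hold for whole counts or scores with ties. The 19 are therefore not set against a number given by chance. No explanation was weighed.

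Site counts stood out for the Cd79a window in 1 GATA2 library (22, against 20 in the others), the Cd79b window in 1 hi-77-/- empty library (15, against 14), the Igll1 window in 1 hi-77+/+ empty and 1 GATA2 library (7 each, against 6), the Vpreb3 window in 1 hi-77+/+ empty library (13, against 11), and the Vpreb2 window in 1 9aa-Ins library (9, against 11) and 1 GATA2 library (19, against 13 to 14). Most of these gaps are 1 or 2 sites.

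Promoter scores stood out at Cd79a in hi-77+/+ empty (54.72, against 0 to 4.732), the value that made that group overlap hi-77-/- empty, at Rag2 with 9aa-Ins (10.44, against 20.85 to 22.65) and at Vpreb1 with 9aa-Ins (89.44, against 91.78 to 92.08). The site 1.46 kb upstream of Igll1 had 28.04 in 1 hi-77+/+ empty library, against 70.42 to 73.73, and the Dntt intron site 6.98 kb downstream had 17.41, against 49.88 to 54.72.

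At sites nearer to other genes, 1 library stood apart at the Dmrtc2 exon with GATA2 (53.02, against 5.561 to 12.31), the Icam2 site with GATA2 (51.13, against 64.16 to 65.76) and the Zfp280b promoter with GATA2 (80.84, against 86.91 to 88.12). The same held for hi-77-/- empty at the promoters of Derl3 (0.0, against 35.52 to 37.19) and Rps19 (95.89, against 99.12 to 99.17). The Smarcd2 intron with 9aa-Ins had 55.47, against 40.86 to 43.19, and the site 41.4 kb upstream of Vpreb2 in hi-77+/+ empty had 80.01, against 91.44 to 92.75.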

How the results depend on the processing

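Counts of sites near the 9 genes moved with the peak list used and with the test. Here deletion stands for hi-77-/- empty against hi-77+/+ empty, GATA2 and 9aa-Ins for each protein against the empty vector in hi-77-/- cells, and the direct comparison for 9aa-Ins against GATA2. With all deposited peaks, deletion gave 4 opened, 5 closed and 26 lower sites, GATA2 gave 2 opened, 9aa-Ins gave 0 closed, 13 higher and 1 lower, and the direct comparison gave 39 higher and 5 lower. With the top 24000 peaks these were 4 opened, 3 closed and 15 higher for deletion, 1 opened, 3 closed, 5 higher and 11 lower for GATA2, 1 opened, 0 closed, 0 higher and 2 lower for 9aa-Ins, and 2 opened, 1 closed, 6 higher and 5 lower for 9aa-Ins against GATA2. Those settings hold 320 and 85 sites in the windows in place of 152. Shares of all regions are not given for the settings of this section, so its counts are not set against a background. When a peak had to cover 50% of a site, deletion gave 2 closed, 18 higher and 9 lower, GATA2 5 higher and 15 lower, 9aa-Ins 1 opened, 0 closed and 4 lower, and 9aa-Ins against GATA2 4 lower. Peaks narrower than 1 kb gave 0 closed and 10 lower for deletion and 1 opened and 3 lower for 9aa-Ins. Windows of 50 kb gave 0 closed and 9 lower for deletion, 2 opened and 7 higher for GATA2 and 6 lower for 9aa-Ins against GATA2, as fewer sites remain. Keeping all peaks tied with the last one, a choice made after seeing the data, gave 0 closed for deletion.

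The exact permutation test called 0 sites in all 4 comparisons and both directions. Its smallest p is 0.0286 and its smallest adjusted p over all regions 0.109, 0.171, 0.274 and 0.142, so it could make no call. At an unadjusted exact p below 0.05 it had 32, 32, 18 and 27 of the 129 sites.

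Leaving out 1 library at a time gave 11 to 13 opened, 1 to 2 closed, 26 to 29 higher and 9 to 16 lower sites for deletion. GATA2 gave 4 to 6, 8 to 11, 10 to 13 and 16 to 22, 9aa-Ins gave 3 to 4, 2 to 4, 3 to 4 and 3 to 7, and 9aa-Ins against GATA2 gave 6 to 9, 2 to 4, 11 to 16 and 7 to 10, in the same order. Lower sites after deletion fell to 9 without hi-77-/- empty replicate 4, and closed sites were 2 without hi-77+/+ empty replicate 4. With 9aa-Ins lower sites were 4 without hi-77-/- empty replicate 1, and 4, 4 and 3 without 9aa-Ins replicates 2, 3 and 4, while closed sites were 4 without 9aa-Ins replicate 2. For 9aa-Ins against GATA2 closed sites were 4 without GATA2 replicate 4 and without 9aa-Ins replicate 2.

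Replicate numbers did not pair the libraries: correlations of the deviations of same-numbered libraries from their group means were -0.022 to 0.012, -0.011 to 0.015, -0.031 to 0.034 and 0.017 to 0.082 for the 4 comparisons. With the replicate block, deletion had 27 higher and 13 lower sites, GATA2 12 and 19, 9aa-Ins 4 and 6, and 9aa-Ins against GATA2 15 and 9, and 4 of 94 calls at single sites named in the text or its gene lists were lost.

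Of those 94 calls, 76 were kept without any 1 library. The direction reversed when a peak had to cover 50% of the site at the site 51.52 kb upstream of Cd79a after deletion (6.346), the Ess2 promoter in the Vpreb2 window for 9aa-Ins against GATA2 (16.16) and the Vav1 promoter with GATA2 (17.33). With only peaks narrower than 1 kb, which drops wide promoter peaks, it reversed at the promoters of Plcg2 (25.81) and Klf1 (12.39) after deletion, Pik3ap1 with GATA2 (7.58), and Pik3ap1 (-31.45), Spi1 (-44.12) and Mpo (-75.27) for 9aa-Ins against GATA2. Weak sites near the length limit of a list cannot be told from absent ones, since the lists give no depth.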
